A study of Mus musculus with 6 samples.

Results

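The machinery of regulated exocytosis was examined in MTT and MPC cells, a pair of mouse lines of pheochromocytoma, the catecholamine-secreting tumor of the adrenal medulla. The set holds 46 genes, which were listed by their function, with earlier results of these data known, from priming factors, SNAREs, synaptotagmins, the Rab3 and Rab27 GTPases and proteins of the vesicle and granule membrane. Each gene is read by the brightest probe set that the platform's annotation maps to that symbol and no other. All 46 were measured, out of 19937 genes with such a probe set. Each line was represented by 3 samples, for which the labels give no treatment, and each sample was hybridised to an Affymetrix Mouse Gene 1.0 ST array of its own. MPC cells were derived from mice with a knockout of Nf1, and MTT cells came from liver metastases that MPC cells formed, so both lines share that background and each group is a single cell line. The study's methods describe the MTT arrays only, and the MPC group is taken from the titles and the cell type in the labels, since the fields for source and growth read alike on all 6 samples. Whether the samples of each line were grown as separate cultures is not given in the sources used here, so the p-values rest on a spread between samples that may be technical.

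In chromaffin cells and the tumors that arise from them, amines and peptides are stored in dense-core granules and released when calcium enters the cell. Rab3 and Rab27 proteins on the granule bind effectors that bring it to the plasma membrane, and priming factors such as Munc13 and CAPS prepare it for fusion. The SNARE proteins on both membranes then zip together, and synaptotagmins couple this step to calcium, after which NSF and the SNAP adaptors take the SNARE complex apart for another round. Values are log2 signals after RMA, which corrects background, gives the arrays a common distribution and merges the probes of each probe set into 1 value. A difference is always that of log2 signals, MTT minus MPC, so that 1 would be a doubling. A gene was called at an adjusted p under 0.05 by limma, adjusted over all 19937 genes. Signals of different probe sets depend on their probes and are not compared as levels.

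The label was checked against markers of chromaffin cells. Of 12 chromaffin markers, 11 had a probe set, and the catecholamine enzymes Th, Ddc and Dbh had mean signals of 13.5, 12.6 and 13.01, while Pnmt, which makes adrenaline, read 7.02. Over the 11 markers the mean log2 signal was 11.20 to 11.22 on MTT arrays and 11.18 to 11.20 on MPC arrays. That mean joins markers that differed in both directions, since limma called 3 of the 11. The vesicular amine transporter Slc18a1 and the transcription factor Gata3 rose by 0.27 and 0.19 on the log2 scale, and Chgb, which encodes chromogranin B of the granule core, fell by 0.15 (limma adjusted p = 0.00424, 0.0445 and 0.0233). The 35 measured markers of hepatocytes, adrenal cortex, endothelium, macrophages, fibroblasts and Schwann cells had mean signals of 4.34 (Lum) to 8.74 (Col1a1). Limma called none of the 35, and 2 had an unadjusted p under 0.05, beside 4092 of all 19937 genes. For each of these 6 cell types the range of the markers' mean over MTT arrays overlapped that over MPC arrays. The deposited table holds no call of detection, so a signal under 8.74 is not shown here to lie above background. By the mean of the 6 arrays that holds for 15 of the 46 exocytosis genes, among them the called genes Cadps, Rims2, Rab27b and Sytl4. Of these called genes only Cadps read above 8.74 in 1 line, on the MTT arrays (8.78, 8.87 and 8.84). In bulk RNA, fewer cells that express a gene and less of its RNA per cell cannot be told apart.

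In MTT cells 6 of the 46 genes rose relative to MPC cells, 3 fell and 37 did not pass the test. The 9 called genes make 19.6% of the set, against 7.87% of all genes tested, a comparison limited by that choice. The share was 13% for higher genes against 3.93% of all genes, and 6.52% for lower genes against 3.94%. Of the 46 genes, 34 read above the median signal of all genes, which was 8.28. Among those 34 genes 7 were called (20.6%), and among all 9968 genes above the median 12.2% were. Cadps, Rims2, Rab27b, Rab3c, Ptprn and Syt11 were the higher genes, and Syt5, Sytl4 and Rab27a the lower ones. None of the 46 differed 2-fold, while 33 of all genes did. The median difference of the set was 0.015, beside -0.0081 over all genes (0.030 without MTT replicate 1 and 0.0071 without MTT replicate 3), and the median size of the difference regardless of sign was 0.073, beside 0.050. In 12 genes all 3 MTT arrays lay above all 3 MPC arrays (26.1%, against 11.7% of all genes), and in 10 genes all 3 lay below (21.7%, against 15.4%). In the other 24 the arrays of the lines overlapped. The mean absolute difference over the set was 0.040 to 0.067 for a pair of MTT arrays, 0.052 to 0.066 for a pair of MPC arrays and 0.11 to 0.13 for an MTT and an MPC array.

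The number of calls depended on the variance estimate. Without moderation of the variances 3 genes were higher and 2 lower, with a mean-variance trend 10 were higher and 7 lower, and with every probe set on the array tested 2 were higher and 2 lower. Among genes above the median signal alone, 9 were higher and 6 lower. Leaving out MTT replicate 1 left 3 higher genes, and leaving out MTT replicate 2 left 2. Over all 6 such fits the higher genes numbered 2 to 5 and the lower ones 2 to 3. The share of all genes called in each of these alternative fits is not given here. The counts therefore describe how stable the calls were and do not set the genes apart from other genes.

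**Figure D1:**
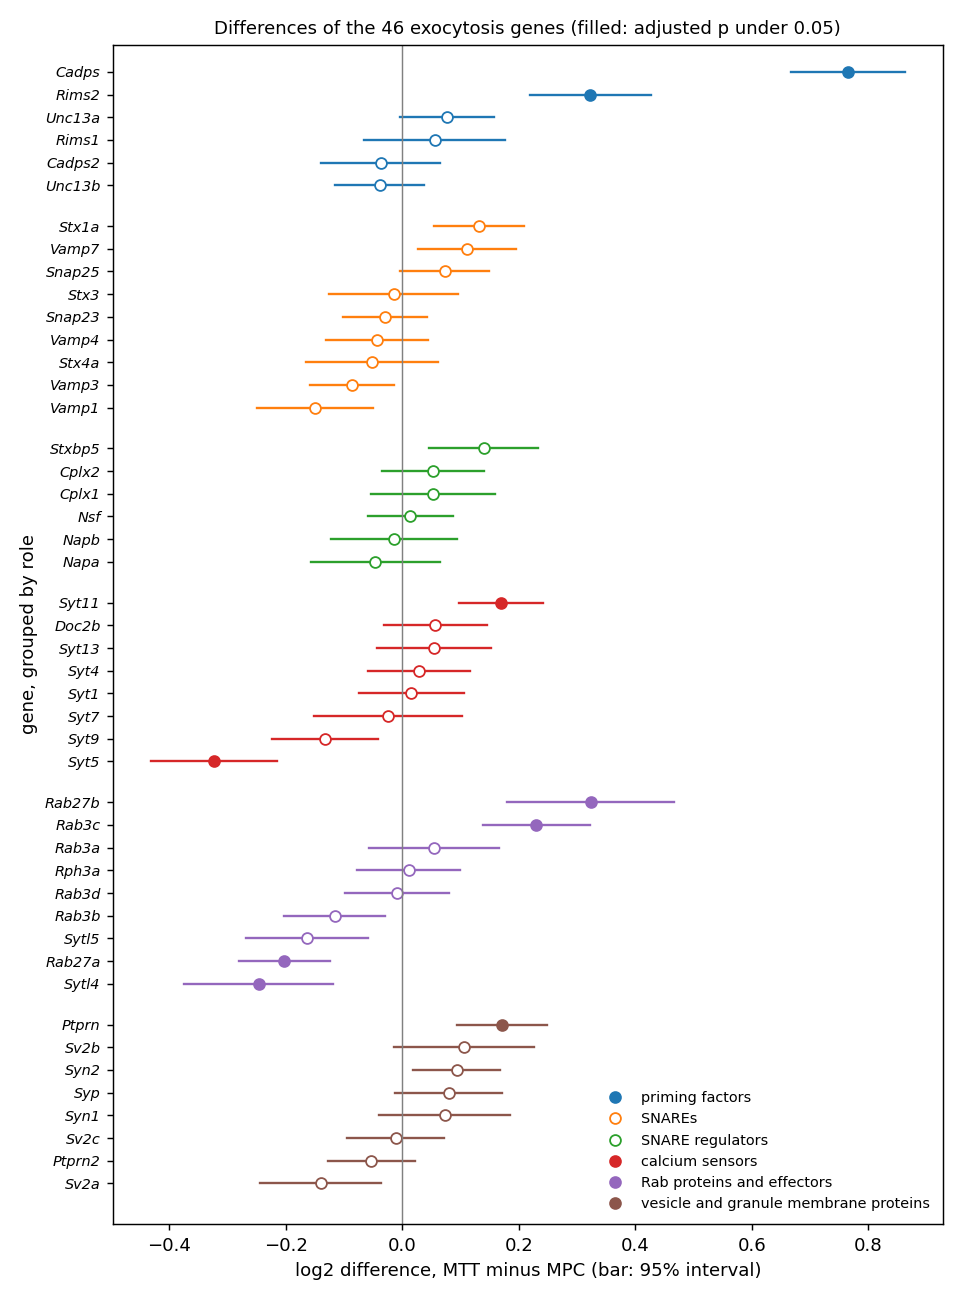
log2 difference (horizontal axis, MTT minus MPC) of each of the 46 exocytosis genes (vertical axis), grouped by role. Points are differences of means of 3 arrays, bars are limma's 95% intervals, and filled points have an adjusted p under 0.05. Cadps, at 0.76, lies apart from the other 45 genes, which range from -0.32 to 0.32.

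Promoters of 4 called genes are shown to set the higher and the lower ones side by side. They are those of Cadps and Ptprn, of the higher genes, and of Rab27a and Sytl4, a GTPase and its effector that were both lower. Each is the stretch of 250 bases before the annotated start in RefSeq on GRCm38.p6, read 5′ to 3′ on the strand of the gene. The Cadps stretch lies at chr14:12823080-12823329 (minus strand, 58% G and C), that of Ptprn at chr1:75264209-75264458 (minus strand, 59.2% G and C), that of Rab27a at chr9:73044560-73044809 (plus strand, 62% G and C) and that of Sytl4 at chrX:133981813-133982062 (minus strand, 53.2% G and C). Ptprn and Rab27a each have 2 annotated starts, of which the first in the table is shown. Capitals mark matches on either strand, overlaps included, to 4 motifs whose letters are given with their counts after the sequences, namely the core of a cAMP response element, the GC box, the CCAAT box and the TATA box.
Cadps: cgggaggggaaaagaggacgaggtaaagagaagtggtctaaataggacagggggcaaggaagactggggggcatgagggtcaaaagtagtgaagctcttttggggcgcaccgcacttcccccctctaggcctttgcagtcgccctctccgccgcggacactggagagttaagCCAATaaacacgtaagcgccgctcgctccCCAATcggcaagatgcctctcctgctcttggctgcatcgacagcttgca
Ptprn: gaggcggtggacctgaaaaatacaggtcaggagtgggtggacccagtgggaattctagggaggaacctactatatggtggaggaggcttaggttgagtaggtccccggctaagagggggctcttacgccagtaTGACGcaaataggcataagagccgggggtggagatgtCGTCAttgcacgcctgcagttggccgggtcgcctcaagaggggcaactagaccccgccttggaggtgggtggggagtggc
Rab27a: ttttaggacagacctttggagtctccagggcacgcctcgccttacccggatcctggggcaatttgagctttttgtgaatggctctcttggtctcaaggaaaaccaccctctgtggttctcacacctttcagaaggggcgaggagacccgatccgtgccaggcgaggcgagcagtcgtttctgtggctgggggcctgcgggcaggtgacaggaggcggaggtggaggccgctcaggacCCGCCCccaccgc
Sytl4: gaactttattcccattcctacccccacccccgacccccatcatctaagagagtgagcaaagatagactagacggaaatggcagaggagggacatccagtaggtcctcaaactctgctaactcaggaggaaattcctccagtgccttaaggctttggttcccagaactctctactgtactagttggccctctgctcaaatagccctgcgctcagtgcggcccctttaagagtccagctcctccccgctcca
The Cadps stretch held 2 CCAAT boxes, that of Ptprn 2 cores of a cAMP response element, that of Rab27a 1 GC box and that of Sytl4 none of the 4 motifs. These counts depend on the start, since the stretch before the second start of Ptprn held 1 GC box and no other match, and that of Rab27a held 1 core of a cAMP response element and 2 CCAAT boxes. RefSeq promoters were matched for 36 of the 46 genes, with 47 starts. The core of a cAMP response element, spelled TGACG, was found in 11 of these 47 stretches (23.4%) and in 17.8% of 32851 stretches of the same length over all genes. The GC box, searched for as GGGCGG, was found in 26 of the 47 (55.3%), beside 32.7% over all genes. The letters of the CCAAT box are its name, and they were found in 13 of the 47 stretches (27.7%), beside 33.8% of all such stretches. For the TATA box, which was taken as TATAAA, the counts were 4 of 47 (8.51%) and 12.4%. Among the 8 stretches of the 6 called genes that were matched, 2 held the core of a cAMP response element, 4 a GC box, 3 a CCAAT box and 0 a TATA box. A match describes letters in these windows, not a bound factor.

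The priming factors held the largest difference of the set. Cadps encodes CAPS1, which primes dense-core granules for fusion. Its signal was 8.782, 8.868 and 8.837 on the 3 MTT arrays and 8.097, 8.098 and 7.996 on the 3 MPC arrays. The lines were far apart beside the spread of their arrays, and the means differed by 0.76 on the log2 scale, a 1.70-fold ratio (standard error 0.042, limma adjusted p = 3.07e-05). The call held in all 16 alternative fits. Its paralogue Cadps2 read 6.01 ± 0.01 (SD, n = 3) over the MTT arrays against 6.04 ± 0.08 (SD, n = 3) over the MPC arrays, a low signal, with a difference of -0.037 (95% interval -0.14 to 0.065, limma adjusted p = 0.716).

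Rims2, a Rab3-binding scaffold at release sites, read 8.71, 8.72 and 8.71 on the 3 MTT arrays and 8.43, 8.45 and 8.30 on the 3 MPC arrays. The MTT arrays were nearly equal and all above the MPC arrays, of which replicate 3 was the lowest. The difference was 0.32 (standard error 0.045, limma adjusted p = 0.00424), and it did not pass without moderation of the variances (adjusted p = 0.0548). Rims1, its paralogue, had a difference of 0.056 (95% interval -0.065 to 0.18, limma adjusted p = 0.624). Unc13a, which encodes the priming factor Munc13-1, had a difference of 0.077 (95% interval -0.0033 to 0.16, limma adjusted p = 0.263) on its brightest probe set, and 2 dimmer probe sets of the gene had differences of -0.094 and -0.022, so the sign for Unc13a depends on the probe set. Unc13b, which encodes Munc13-2, had a difference of -0.039 (95% interval -0.11 to 0.038, limma adjusted p = 0.582).

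**Figure D2:**
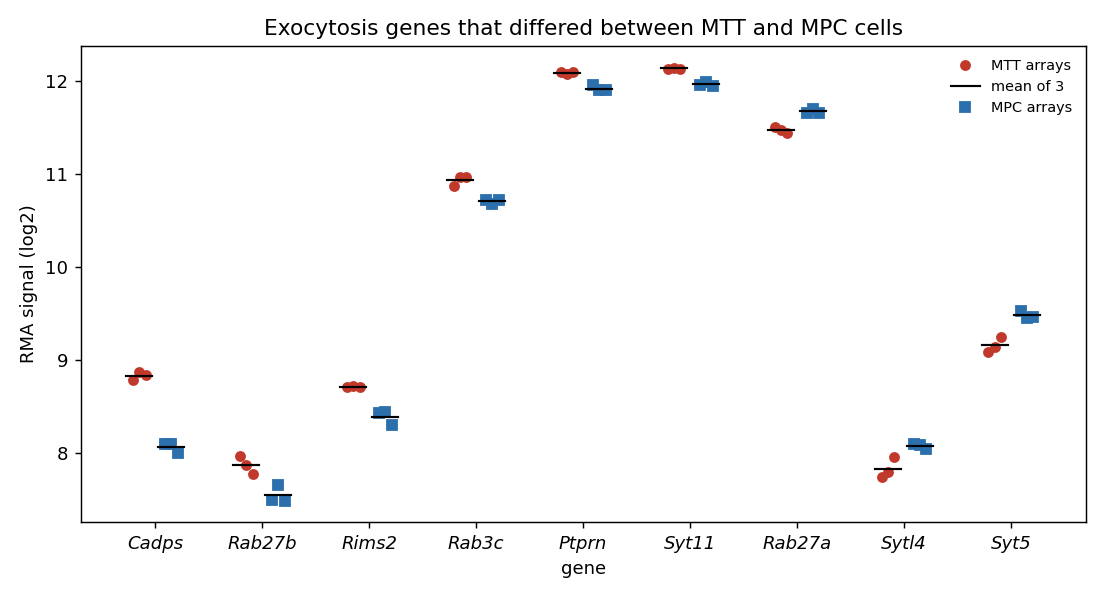
RMA signal on the log2 scale (vertical axis) of the 9 exocytosis genes that limma called (horizontal axis), on the 3 MTT arrays (red circles) and the 3 MPC arrays (blue squares), with the mean of each line as a black bar. The 6 genes on the left were higher in MTT cells, Cadps most of all, and the 3 on the right were lower. Heights are to be compared within a gene, not between genes.

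The Rab proteins and their effectors moved in both directions. Of the 9, 2 rose (22.2%, against 3.93% of all genes), 2 fell (22.2%, against 3.94%) and 5 did not pass the test. In so small a group these shares are no test. Rab27a, a GTPase of secretory granules, was lower in MTT cells, at 11.50, 11.47 and 11.44 on the 3 MTT arrays and 11.66, 11.70 and 11.65 on the 3 MPC arrays. The lines did not overlap, and the difference was -0.20 (standard error 0.034, limma adjusted p = 0.00958). This call held in all 16 alternative fits. Sytl4 encodes granuphilin, which binds Rab27 and docks granules. Its signal was 7.75, 7.79 and 7.96 on the 3 MTT arrays and 8.10, 8.09 and 8.05 on the 3 MPC arrays. MTT replicate 3 lay apart from the other MTT arrays and closest to the MPC arrays, and the difference was -0.25 (standard error 0.055, limma adjusted p = 0.0331). Sytl4 did not pass when variances were not moderated (adjusted p = 0.159), when every probe set was tested (adjusted p = 0.114) or when any single array other than MTT replicate 3 was dropped (adjusted p 0.00749 to 0.119 over the 6). Sytl5, a related Rab27 effector, had a difference of -0.16 (95% interval -0.27 to -0.058, limma adjusted p = 0.0744) and passed in 1 alternative, when its 2 probe sets were averaged (adjusted p = 0.0483).

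Rab27b, the close relative of Rab27a, went the other way. It read 7.96, 7.88 and 7.78 on the 3 MTT arrays and 7.50, 7.66 and 7.49 on the 3 MPC arrays. The lowest MTT array lay just above the highest MPC array, and the difference was 0.32 (standard error 0.062, limma adjusted p = 0.0175). Rab27b did not pass when variances were not moderated (adjusted p = 0.132), with every probe set tested (adjusted p = 0.0777) or on dropping MTT replicate 1, MTT replicate 2, MPC replicate 1 or MPC replicate 3 (adjusted p 0.0139 to 0.0652 over the 6 fits). Rab3c, a GTPase of secretory vesicles, read 10.87, 10.97 and 10.97 on the 3 MTT arrays and 10.72, 10.67 and 10.72 on the 3 MPC arrays. All MTT arrays were above the MPC arrays by more than the spread within a line, and the difference was 0.23 (standard error 0.040, limma adjusted p = 0.0111). The call of Rab3c ended without MTT replicate 2 (adjusted p = 0.0536), without moderation of the variances (adjusted p = 0.0649) and, narrowly, with every probe set tested (adjusted p = 0.0504).

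Rab3c lies on chromosome 13, whose genes as a whole were higher in MTT cells. Over all 735 genes of that chromosome the median difference was 0.081. The 368 of them above the median signal had a median difference of 0.20, with quartiles of 0.12 and 0.26, so the difference of Rab3c lay inside this range, and the part of the chromosome in it was not tested. The other members on chromosome 13 lay below those quartiles. They were Cplx2, at 0.053 (95% interval -0.034 to 0.14, limma adjusted p = 0.488), and Sv2c, at -0.011 (95% interval -0.094 to 0.072, limma adjusted p = 0.912). Genes of chromosome 19 were lower as a whole, with a median difference of -0.060 over all 678 genes and -0.11 over the 337 above the median signal. Its members Stx3, a SNARE of the plasma membrane, and Syt7, a slow calcium sensor, had differences of -0.015 (95% interval -0.13 to 0.10, limma adjusted p = 0.915) and -0.024 (95% interval -0.15 to 0.10, limma adjusted p = 0.866). Without the genes of both chromosomes, 5 exocytosis genes were higher and 3 lower among 41. The share of all genes called in that fit is not given here.

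Of the remaining Rab proteins, Rab3a, the main form on neuronal and chromaffin vesicles, read 9.63 ± 0.05 (SD, n = 3) over the MTT arrays against 9.57 ± 0.08 (SD, n = 3) over the MPC arrays. Rab3b had a difference of -0.12 (95% interval -0.20 to -0.029, limma adjusted p = 0.121), with all 3 MTT arrays below the MPC arrays, and passed with a mean-variance trend and among genes above the median signal. Rab3d, at -0.0085, and the Rab3 effector Rph3a, which encodes rabphilin, at 0.011, had intervals that span 0 (limma adjusted p = 0.941 and 0.922).

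The 8 genes listed as calcium sensors were grouped by family, whether or not they bind calcium. Of these, 1 gene was higher (12.5%, against 3.93% of all genes), 1 was lower (12.5%, against 3.94%) and 6 were not called. Syt5, a synaptotagmin of dense-core granules, read 9.09, 9.14 and 9.24 on the 3 MTT arrays and 9.53, 9.45 and 9.47 on the 3 MPC arrays. All MTT arrays were lower, and the difference of -0.32 was as large as that of Rims2 in the other direction (standard error 0.047, limma adjusted p = 0.00499). It did not pass without moderation of the variances (adjusted p = 0.0617). Syt11, a synaptotagmin that does not bind calcium, was placed in this group by family. Its signal was 12.13, 12.14 and 12.13 on the 3 MTT arrays and 11.96, 11.98 and 11.95 on the 3 MPC arrays, with the MTT arrays nearly equal and all above the MPC arrays. The difference of Syt11 was 0.17 (standard error 0.031, limma adjusted p = 0.0143). Syt11 did not pass without MTT replicate 1 or 2 or MPC replicate 1 (adjusted p 0.0398 to 0.0668 over the 6 fits) or, narrowly, with every probe set tested (adjusted p = 0.0505).

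Syt1 and Syt9, which trigger fast release, did not pass the test. Syt1, the main fast sensor of chromaffin cells, read 11.45 ± 0.05 (SD, n = 3) over the MTT arrays against 11.43 ± 0.03 (SD, n = 3) over the MPC arrays, a difference of 0.015 (95% interval -0.075 to 0.11, limma adjusted p = 0.884). Syt9, a further fast sensor, had a difference of -0.13 (95% interval -0.22 to -0.041, limma adjusted p = 0.0933), with all MTT arrays below the MPC arrays at a signal near 7.69. Syt4, Syt13 and Doc2b, a sensor of high calcium affinity, had differences of 0.029, 0.054 and 0.057 (limma adjusted p = 0.747, 0.543 and 0.461).

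None of the 9 SNAREs was called by limma. Of the 9, 4 had an unadjusted p under 0.05, beside 4092 of all 19937 genes, and 4 passed with a mean-variance trend. Stx1a, the syntaxin of the plasma membrane that acts in regulated release, read 9.05, 9.06 and 9.07 on the 3 MTT arrays and 8.96, 8.94 and 8.89 on the 3 MPC arrays. Its arrays did not overlap, and the difference of 0.13 (95% interval 0.054 to 0.21, limma adjusted p = 0.0551) did not pass the threshold. It passed after cyclic loess, with a trend of variance on signal and when only the brighter 9968 genes were tested (adjusted p = 0.0349, 0.0387 and 0.0106). Snap25, its partner on the plasma membrane, read 12.56 ± 0.02 (SD, n = 3) over the MTT arrays against 12.48 ± 0.03 (SD, n = 3) over the MPC arrays, with all MTT arrays above the MPC arrays and a difference of 0.073 (95% interval -0.0042 to 0.15, limma adjusted p = 0.27). Vamp1, a vesicle SNARE, had a difference of -0.15 (95% interval -0.25 to -0.05, limma adjusted p = 0.0827), and Vamp3, the vesicle SNARE of constitutive and recycling traffic, one of -0.086 (95% interval -0.16 to -0.015, limma adjusted p = 0.16). Vamp3 passed without moderation of the variances (adjusted p = 0.0459). In both genes all MTT arrays lay below the MPC arrays. Vamp7, a SNARE of late endosomes and secretory lysosomes, had a difference of 0.11 (95% interval 0.027 to 0.19, limma adjusted p = 0.121). The differences of Snap23, Stx4a and Vamp4 were -0.03, -0.052 and -0.044, and their arrays overlapped.

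None of the 6 SNARE regulators was called, and beside 4092 of all 19937 genes 1 had an unadjusted p under 0.05. That gene was Stxbp5, which encodes tomosyn, an inhibitor that occupies syntaxin and SNAP25. It read 10.33, 10.40 and 10.33 on the 3 MTT arrays and 10.26, 10.22 and 10.15 on the 3 MPC arrays. The MTT arrays were higher, and the difference of 0.14 (95% interval 0.046 to 0.23, limma adjusted p = 0.0858) passed in the same 3 alternatives (adjusted p = 0.0462, 0.0218 and 0.0215). The complexins Cplx1 and Cplx2, which clamp and assist SNARE complexes, had differences of 0.052 and 0.053. Nsf, the ATPase that takes the complexes apart, read 11.66 ± 0.02 (SD, n = 3) over the MTT arrays against 11.64 ± 0.02 (SD, n = 3) over the MPC arrays, and its adaptors Napa and Napb had differences of -0.046 and -0.014. The 95% interval of Nsf ran from -0.059 to 0.086.

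Of 8 proteins of the vesicle and granule membrane, 1 was higher (12.5%, against 3.93% of all genes and 6.21% of genes above the median signal). Ptprn encodes IA-2, a receptor-like protein of the dense-core granule. Its signal was 12.10, 12.08 and 12.09 on the 3 MTT arrays and 11.96, 11.90 and 11.90 on the 3 MPC arrays. All MTT arrays were above the MPC arrays, and the difference was 0.17 (standard error 0.033, limma adjusted p = 0.0181). The call ended without any of the MTT replicates or MPC replicate 2 (adjusted p 0.0293 to 0.0728 over the 6 fits) and with every probe set tested (adjusted p = 0.0636). Its relative Ptprn2 had a difference of -0.053 (95% interval -0.13 to 0.022, limma adjusted p = 0.411) in the other direction. Sv2a, a glycoprotein of all secretory vesicles, had a difference of -0.14 (95% interval -0.24 to -0.037, limma adjusted p = 0.114), and Sv2b one of 0.11 (95% interval -0.014 to 0.23, limma adjusted p = 0.302) at a low signal. Syn2, a synapsin that tethers vesicles, had a difference of 0.093 (95% interval 0.018 to 0.17, limma adjusted p = 0.146), and Syn1 and Syp, which encodes synaptophysin, had differences of 0.073 and 0.08 (limma adjusted p = 0.458 and 0.309). Sv2a and Syn2 each passed with a mean-variance trend and among genes above the median signal.

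**Figure D3:**
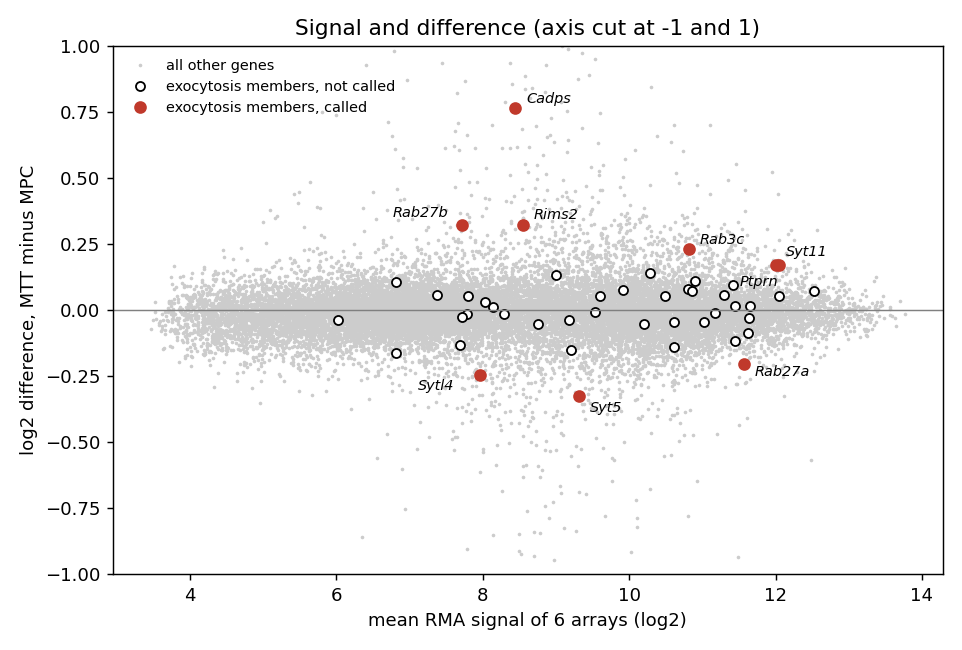
log2 difference (vertical axis, MTT minus MPC) against the mean RMA signal of the 6 arrays (horizontal axis, log2). Grey points are all other genes, open circles the 37 exocytosis genes that were not called and red points the 9 that were. The vertical axis is cut at -1 and 1, which leaves out the 33 genes that differed at least 2-fold, none of them an exocytosis gene. The called genes span mean signals from 7.71 to 12.05.

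For 15 pairs the within-array difference between the pair was compared between the lines, which asks whether both genes shifted by the same amount. An exact permutation test of 3 arrays against 3 cannot give a two-sided p below 0.1 (adjusted p = 0.136 over the 15 pairs), so no pair could pass the threshold of 0.05, and the relative shifts are given as a description. The shift of Cadps exceeded that of Cadps2 by 0.80. Rab27a shifted by -0.53 relative to Rab27b, with the genes moving in opposite directions, and both of these genes were called on their own. Rims1 shifted by -0.27 relative to Rims2 and Sv2a by -0.25 relative to Sv2b. Ptprn shifted by 0.22 relative to Ptprn2 and Rab3a by 0.17 relative to Rab3b. In the first 4 of these pairs 1 gene or both read under 8.74, with mean signals of 8.45 for Cadps, 6.03 for Cadps2, 7.71 for Rab27b, 7.37 for Rims1, 8.55 for Rims2 and 6.81 for Sv2b. Signals in that range are not shown to lie above background, so these relative shifts are no measure of the dimmer gene. The smallest relative shifts were those of Cplx1 and Cplx2, at -0.0013, and Syn1 and Syn2, at -0.020, whose arrays overlapped (exact p = 1 and 0.9).

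**Figure D4:**
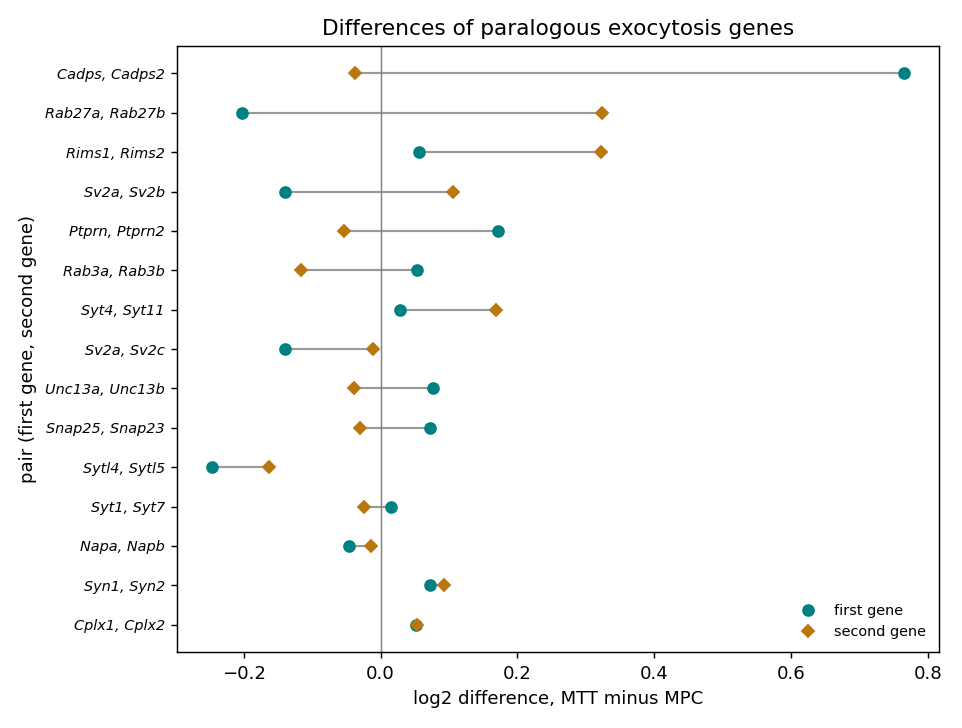
log2 difference (horizontal axis, MTT minus MPC) of the first gene (green circle) and the second gene (brown diamond) of 15 pairs of related exocytosis genes (vertical axis), ordered by the distance between them. Cadps and Cadps2 lie 0.80 apart and Rab27a and Rab27b 0.53 apart on either side of 0, while Cplx1 and Cplx2 coincide.

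Other genes of exocytosis and related membrane traffic, named the other exocytosis genes here, were read from a list of 117. Of these, 113 were counted as measured. The entry for Stxbp3a is an error of matching. No gene identifier was found for that symbol, and the probe set of 1700031F10Rik, which also has none, was entered in its place. Stxbp3a itself was thus not read. The probe set entered for it was not called, but it counts among the 113 and in their shares. Having no known chromosome, it also counts among the 102 genes left without chromosomes 13 and 19. The vesicle SNARE Vamp2 is not reported, since no probe set maps to its symbol alone. Of the 113 genes, 11 were higher (9.73%) and 9 lower (7.96%) in MTT cells, against 3.93% and 3.94% of all genes and 6.21% and 6.04% of genes above the median signal, where 79 of the 113 lie. The list had a median difference of -0.0060. Stxbp6 encodes amisyn, which competes with vesicle SNAREs for syntaxin and SNAP25. It read 9.02, 9.07 and 8.89 on the 3 MTT arrays and 8.33, 7.99 and 8.15 on the 3 MPC arrays. The MTT arrays were all higher, and the difference of 0.84 was larger than that of Cadps (standard error 0.086, limma adjusted p = 0.000912). The mean signal of Stxbp6 over the 6 arrays was 8.57, under 8.74. Its MTT arrays all lay above 8.74 and its MPC arrays all below, so its MPC signal is not shown to lie above background. Stxbp5l, the relative of tomosyn, read 9.34, 9.28 and 9.28 on the 3 MTT arrays and 8.83, 8.90 and 8.88 on the 3 MPC arrays, a difference of 0.43 (standard error 0.036, limma adjusted p = 0.000284). Tomosyn, its relative and amisyn are known as inhibitors of SNARE assembly. Stxbp2, which encodes Munc18-2, had a difference of 0.16, and Napg, an adaptor of NSF, one of -0.16.

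Syt2, a fast calcium sensor, was the gene that fell most among the 113. It read 8.21, 8.21 and 8.25 on the 3 MTT arrays and 8.98, 9.07 and 8.90 on the 3 MPC arrays. Its lines were far apart beside the spread of their arrays, and the difference was -0.76 (standard error 0.046, limma adjusted p = 4.73e-05). Of the other called genes, given as log2 differences, Syt14, a synaptotagmin that does not bind calcium, rose by 0.31, and Dysf, a C2-domain protein of membrane repair, fell by 0.24. Of genes listed with the active zone factors, Bsn, which encodes bassoon, rose by 0.17 and Rims4 fell by 0.15. Rimbp3, listed there by family, fell by 0.19. Mean signals were 8.60 for Syt2, 7.90 for Dysf, 8.54 for Bsn and 7.13 for Rimbp3. All of these means are under 8.74. The MPC arrays of Syt2 all lay above 8.74, while its MTT signal and the signals of Dysf, Bsn and Rimbp3 are not shown to lie above background. Rab3gap1, the catalytic subunit of the Rab3 GTPase-activating protein, fell by 0.16. The vesicle proteins Scamp1, Slc18a1, Hid1 and Syngr3 rose by 0.28, 0.27, 0.24 and 0.22, and Sypl and Cyb561 fell by 0.20 and 0.17. Of the 9 exocyst subunits, which tether vesicles, Exoc2 and Exoc3 rose by 0.32 and 0.27 and Exoc6 fell by 0.16. Of the 22 other SNAREs, which are not all SNAREs of regulated exocytosis, limma called none. Among them 3 had an unadjusted p under 0.05, beside 4092 of all 19937 genes.

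Exoc2, Exoc3 and Scamp1 lie on chromosome 13 and Exoc6 on chromosome 19, and their differences have the sign of those chromosomes as a whole. With all genes tested, 8 of the 102 genes not placed on these chromosomes were higher (7.84%, against 3.93% of all genes) and 8 lower (7.84%, against 3.94%). When the genes of both chromosomes were left out, 6 of the 102 were higher and 8 lower. The share of all genes called in the latter fit is not given here. The calls of Bsn and Stxbp2, which lie on other chromosomes, ended in that fit (adjusted p = 0.0594 and 0.0552). The calls of Bsn, Cyb561, Exoc6, Napg, Rab3gap1, Rimbp3, Rims4 and Stxbp2 were each lost on dropping any of at least 4 of the 6 arrays, with adjusted p up to 0.150. The other 12 calls held in all 6. The lower genes numbered 5 without moderation of the variances, 3 with every probe set tested, 4 with arrays centred on their median and 3 to 7 when 1 array was left out (5 without MTT replicate 1, 3 without MTT replicate 2, MTT replicate 3 or MPC replicate 2).

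**Figure D5:**
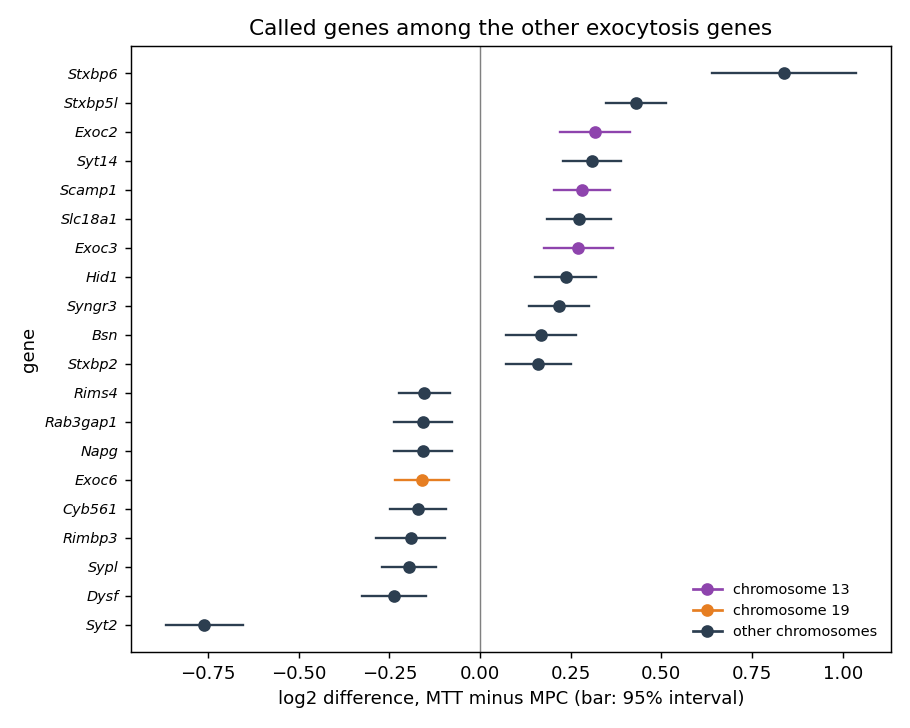
log2 difference (horizontal axis, MTT minus MPC) of the 20 called genes among the 113 other exocytosis genes (vertical axis), with limma's 95% intervals as bars. Colors mark chromosome 13, chromosome 19 and all other chromosomes. Stxbp6, at 0.84, and Syt2, at -0.76, lie apart from the others.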

How the data were processed

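Gene expression was measured on 6 Affymetrix Mouse Gene 1.0 ST arrays, 3 of MTT and 3 of MPC cells. The authors deposited log2 values after RMA. The submitters' notes name Affymetrix Expression Console and RMA, and the study's methods name Partek and R, with versions not given in the sources used here. Of 34760 probe sets, 21640 carry 1 gene symbol in the platform's annotation, and the brightest of each gene was kept (19937 genes). Lines were compared with limma 3.58.1 (lmFit and eBayes) in R 4.3.3, two-sided, with Benjamini-Hochberg adjustment over all genes. The methods name an analysis of variance, which was run as the fit without moderation. Alternatives changed the variance estimate, scaling, probe set rule and genes tested, added the replicate number as a block or left out 1 array. Figures were drawn with matplotlib 3.10.9 in Python 3.11.15. The members and lists were chosen with earlier results of these data known. Named are all members (called ones by array), the called genes of the other list and the members on chromosomes 13 and 19. Chromosomes and promoters come from RefSeq (GRCm38.p6). In a simulation of 3 MTT against 3 MPC arrays over 19937 genes, 100 of 100 genes changed by 1 and 52 of 100 changed by 0.25 on the log2 scale were recovered, with 9 false calls among 161. The number of arrays limits the precision.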

Additional observations from a re-analysis of the deposited data

How the results depend on the processing

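Each call was recomputed under 16 alternatives. Cadps and Rab27a were called in all of them, and Cadps, Rims2, Syt5 and Rab27a in all 6 fits without 1 array. The 6 higher and 3 lower exocytosis genes became 3 and 2 without moderation of the variances, 10 and 7 with a mean-variance trend, 2 and 2 with every probe set tested and 9 and 6 among genes above the median signal, where fewer genes were tested. Without 1 array they were 2 to 5 and 2 to 3. Of the other exocytosis genes, 11 higher and 9 lower, the lower count was 5 without moderation, 3 with every probe set tested and 4 with arrays centred on their median, the higher count was 6 without chromosomes 13 and 19, where 102 of the 113 genes were tested, and without 1 array they were 9 to 10 and 3 to 7. The median of the members was 0.0071 to 0.030 without 1 array. The number of paralogue pairs past the threshold was 0 throughout, since the exact test cannot pass. The share of all genes called under each alternative is not given beside these counts. The causes were not tested.

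With the replicate number as a block, 6 members were higher and 2 lower, Sytl4 being the call that ended (adjusted p = 0.0535), and 10 other exocytosis genes were higher and 8 lower, and no paralogue pair passed (0). Deviations of same-numbered arrays from their line's mean correlated at 0.12, 0.074 and 0.25 over genes, so the labels' numbers were not taken to pair the samples. By these deviations every array correlated best with the array of its own number in the other line, which is a hint from the data and not from the design. By the signals themselves this did not hold for MTT replicate 2, which correlated best with MPC replicate 1.

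The sign turned in 23 of the recomputed values of members and pairs, none of a called gene. With the mean of its probe sets Unc13a was -0.013. Without 1 array, the difference ran from -0.074 to 0.0046 for Cadps2, -0.060 to 0.013 for Stx3, -0.063 to 0.020 for Napb, -0.0083 to 0.044 for Syt1, -0.00085 to 0.049 for Syt4, -0.063 to 0.028 for Syt7, -0.031 to 0.018 for Rab3d, -0.021 to 0.028 for Rph3a and -0.034 to 0.010 for Sv2c. The relative shift ran from -0.024 to 0.041 for Cplx1 and Cplx2, -0.079 to 0.015 for Syn1 and Syn2 and -0.0062 to 0.071 for Syt1 and Syt7. The simulation recovered 52 of 100 genes changed by 0.25, so differences of that size can be missed at 3 arrays a line. It gave 161 calls, against 1569 in the data, so its adjusted threshold was the stricter one. The share recovered there is therefore no estimate of the share recovered in these data.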
